A study of Mus musculus with 4 samples.

Results

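The gastric-type metaplasia genes are 10 genes picked by symbol from a list drawn up with earlier values of these same libraries in view. They are Tff1, Tff2, Gkn3, Muc6, Muc5ac, Ctse, Lgals2, Dmbt1, Onecut2 and Cdh17. All 10 were found among the 32285 genes of each of the 4 count matrices. Because measured levels chose the genes, their levels are given here as a description of the libraries and no test is applied to them. The study concerned interleukin-1 signalling in a mouse model of pancreatic cancer and used single-cell RNA sequencing of 1 library per condition. The conditions were a KPC tumour treated with AF12198, a small peptide that blocks the receptor IL1R1, a control KPC tumour given saline, a suture-ligated pancreas without tumour cells, and a normal pancreas. KPC is a line of mouse pancreatic cancer cells, which were placed into the pancreas after its duct had been tied off with a suture. Both tumours therefore grew in a ligated pancreas, whereas the normal pancreas was neither ligated nor inoculated. Injections were weekly and intraperitoneal, and all tissues were taken at 4 weeks. The sources used here do not give the strain, the age, the number of animals behind each library or the clonal origin of the cell line. The tumour is thus 1 transplanted cell line, and with 1 library per condition no difference between conditions has a replicate check.

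In the stomach, surface pit cells secrete the mucin Muc5ac with the trefoil factor Tff1, and mucous neck cells deeper in the gland secrete Muc6 with Tff2. Injured gastric glands can gain neck-type cells that make Muc6, Tff2 and, in the mouse, the gastrokine Gkn3, a change known as pyloric or spasmolytic polypeptide-expressing metaplasia. Pancreatic ducts and acini under chronic injury, and early pancreatic neoplasia, are known to switch on genes of this kind. The other members have wider roles. Ctse is the aspartic protease cathepsin E of gastric surface cells, Lgals2 is a galactoside-binding lectin of the gut, and Dmbt1 is a secreted scavenger-receptor glycoprotein of mucosal epithelia. Cdh17 is the liver-intestine cadherin, and Onecut2 is a homeodomain transcription factor of the developing liver and pancreas.

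On genome build mm10, 9 of the 10 genes were located by identifier in the GENCODE vM21 annotation, all of them protein-coding. Tff2 lies at chr17:31141049-31144282 and Tff1 at chr17:31161395-31165277, both on the minus strand and separated by 17112 bases. Muc6 lies at chr7:141633456-141655319 on the minus strand, 133652 bases from Muc5ac at chr7:141788972-141819231 on the plus strand. Gkn3 is at chr6:87383256-87388935, Ctse at chr1:131638306-131675505, Lgals2 at chr15:78850860-78855529, Dmbt1 at chr7:131032053-131121630 and Cdh17 at chr4:11758147-11817895.

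RefSeq promoters were available for only 3 of the genes, Gkn3, Muc6 and Lgals2, and all 3 are shown. Each sequence is the 250 bases before the RefSeq start on GRCm38.p6, 5′ to 3′ on the gene's own strand, which is the minus strand in all 3. Capitals mark matches on either strand to 5 short motifs. These were the TATA-box core TATAA, the core of GATA factor sites GATAA, and, for the families HNF1, FOXA and ONECUT in this order, the letters GTTAAT, then the letters TGTTTAC, then the letters ATTGAT.
Gkn3 (chr6:87388936-87389185): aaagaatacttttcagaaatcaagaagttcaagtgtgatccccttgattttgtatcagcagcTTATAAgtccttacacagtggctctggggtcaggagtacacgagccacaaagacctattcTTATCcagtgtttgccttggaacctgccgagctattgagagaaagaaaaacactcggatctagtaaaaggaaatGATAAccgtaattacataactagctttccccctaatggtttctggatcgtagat
Muc6 (chr7:141655394-141655643): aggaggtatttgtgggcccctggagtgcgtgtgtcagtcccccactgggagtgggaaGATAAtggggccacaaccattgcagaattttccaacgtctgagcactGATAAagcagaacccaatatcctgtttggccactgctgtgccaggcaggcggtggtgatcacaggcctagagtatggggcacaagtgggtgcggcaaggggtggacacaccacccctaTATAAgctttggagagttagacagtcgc
Lgals2 (chr15:78855530-78855779): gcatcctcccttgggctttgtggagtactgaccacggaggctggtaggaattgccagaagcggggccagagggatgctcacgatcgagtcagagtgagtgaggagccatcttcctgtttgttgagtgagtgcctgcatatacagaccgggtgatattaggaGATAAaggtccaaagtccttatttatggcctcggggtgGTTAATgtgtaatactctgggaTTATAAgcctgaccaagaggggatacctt
TATAA lay 28 to 24 bases before the start in Muc6 and in Lgals2, where a match on the opposite strand overlapped it, and 187 to 183 bases before the start in Gkn3, again with an overlapping match on the opposite strand. TATAA was in 22.8% of 32817 RefSeq promoters of this length. GATAA was in all 3 promoters, at 2 places in Gkn3 and in Muc6 and at 1 in Lgals2, and in 22.6% of all promoters. GTTAAT was found in Lgals2 alone of the 3, 51 to 46 bases before its start, and in 6.44% of all promoters. Neither TGTTTAC, found in 3.16% of all promoters, nor ATTGAT, found in 6.73%, was in these windows.

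The matrices hold counts of unique molecular identifiers (UMIs), so each count is a captured RNA molecule. After filtering, 18875, 19235, 1124 and 1771 cells remained in the AF12198-treated tumour, control tumour, ligated and normal libraries, with median depths of 2298, 2035, 2216 and 1589 UMIs per cell. Between 1 and 110 cell barcodes were shared by any 2 libraries, the most by the 2 tumours. Clustering, in which the 10 genes were not used, gave a duct-like cluster that had all 13 duct markers raised and held 85, 92, 336 and 690 cells in the order above. An acinar-like cluster with 15 of 16 acinar markers raised held 326, 57, 11 and 2 cells. A pair of tumour epithelial-like clusters held 1064 cells of the AF12198-treated tumour, 1169 of the control tumour, 5 of the ligated pancreas and 0 of the normal pancreas. These clusters had 10 and 6 of 16 tumour epithelial markers raised, and differed in depth, with medians of 18513 and 1576 UMIs per cell in the AF12198-treated tumour and 20845 and 1632 in the control tumour. Of 8 general epithelial markers, 5 were raised in the deep and 3 in the shallow cluster, against all 8 in the duct-like cluster. The shallow cluster gave 617 of the 1064 and 641 of the 1169 cells.

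Y-linked transcripts set the tumour epithelial-like cells apart from the duct-like cells of the same tumours. The 4 Y-linked genes summed reached 16.6 CPM (counts scaled to a total of 1000000 UMIs in a class) in tumour epithelial-like cells of the AF12198-treated tumour, against 262.8 in its immune-, endothelial- and fibroblast-like cells, and 29.4 against 494.1 in the control tumour. Tumour epithelial-like cells were thus at 6.32% and 5.94% of the level of the other cells around them. Duct-like cells were at 70.9% in the AF12198-treated tumour, 64.6% in the control tumour, 63.6% in the ligated pancreas and 81.3% in the normal pancreas. Acinar-like cells of the tumours lay between, at 15% and 22.5%. The sources used here do not give the sex of the cell line or of the animals, and the part of free RNA in the low values was not tested.

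**Figure D1:**
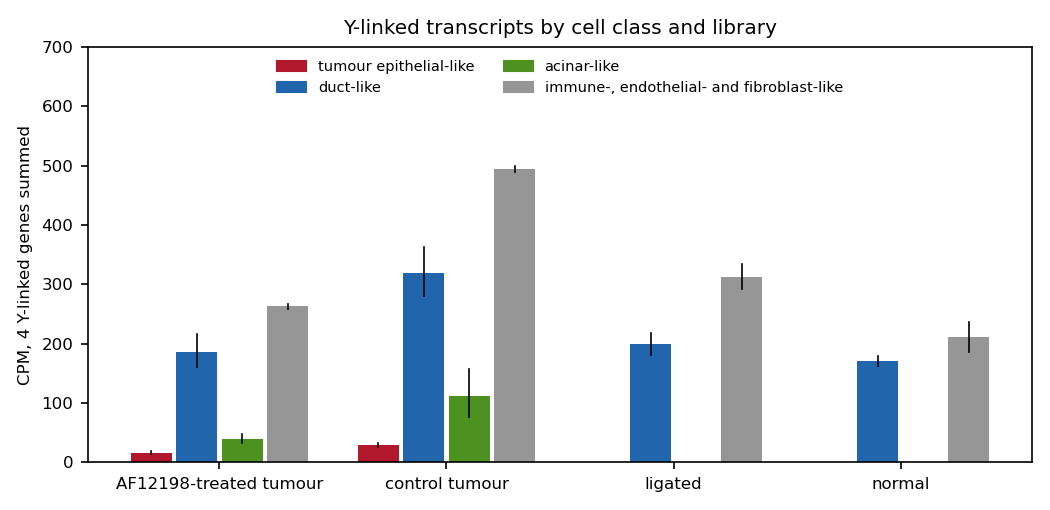
Summed CPM of the 4 Y-linked genes (linear axis) by library, with 1 bar per cell class and 95% Poisson intervals as lines; acinar-like cells are drawn only for the tumours, since the ligated and normal libraries held 11 and 2. Duct-like bars stand at 171.1 to 319.3 CPM in all 4 libraries, and tumour epithelial-like bars at 16.6 and 29.4 CPM.

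The 10 genes did not share 1 pattern across the cell classes. Tff1, Ctse, Lgals2 and Cdh17 were found mainly in tumour epithelial-like cells, with 0 to 5 UMIs each in duct-like cells of the ligated and normal pancreas. Onecut2 was found in tumour epithelial-like and in duct-like cells of every library. Tff2 and Dmbt1 were found in most acinar-like cells of the tumours as well as in tumour epithelial-like cells. Gkn3 was found in small numbers of duct-like, acinar-like and tumour epithelial-like cells, Muc6 in very few cells, and Muc5ac in few tumour epithelial-like cells. All intervals below are 95% intervals, and the limit given for a count of 0 is 3 counts of the total. Both cover counting error only, a limit on a share is one on cells with a UMI and not on cells that express the gene, and UMIs in 1 cell are not independent of each other. A ratio given as at least some value is set against this floor and leaves out the counting error of the other count.

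**Figure D2:**
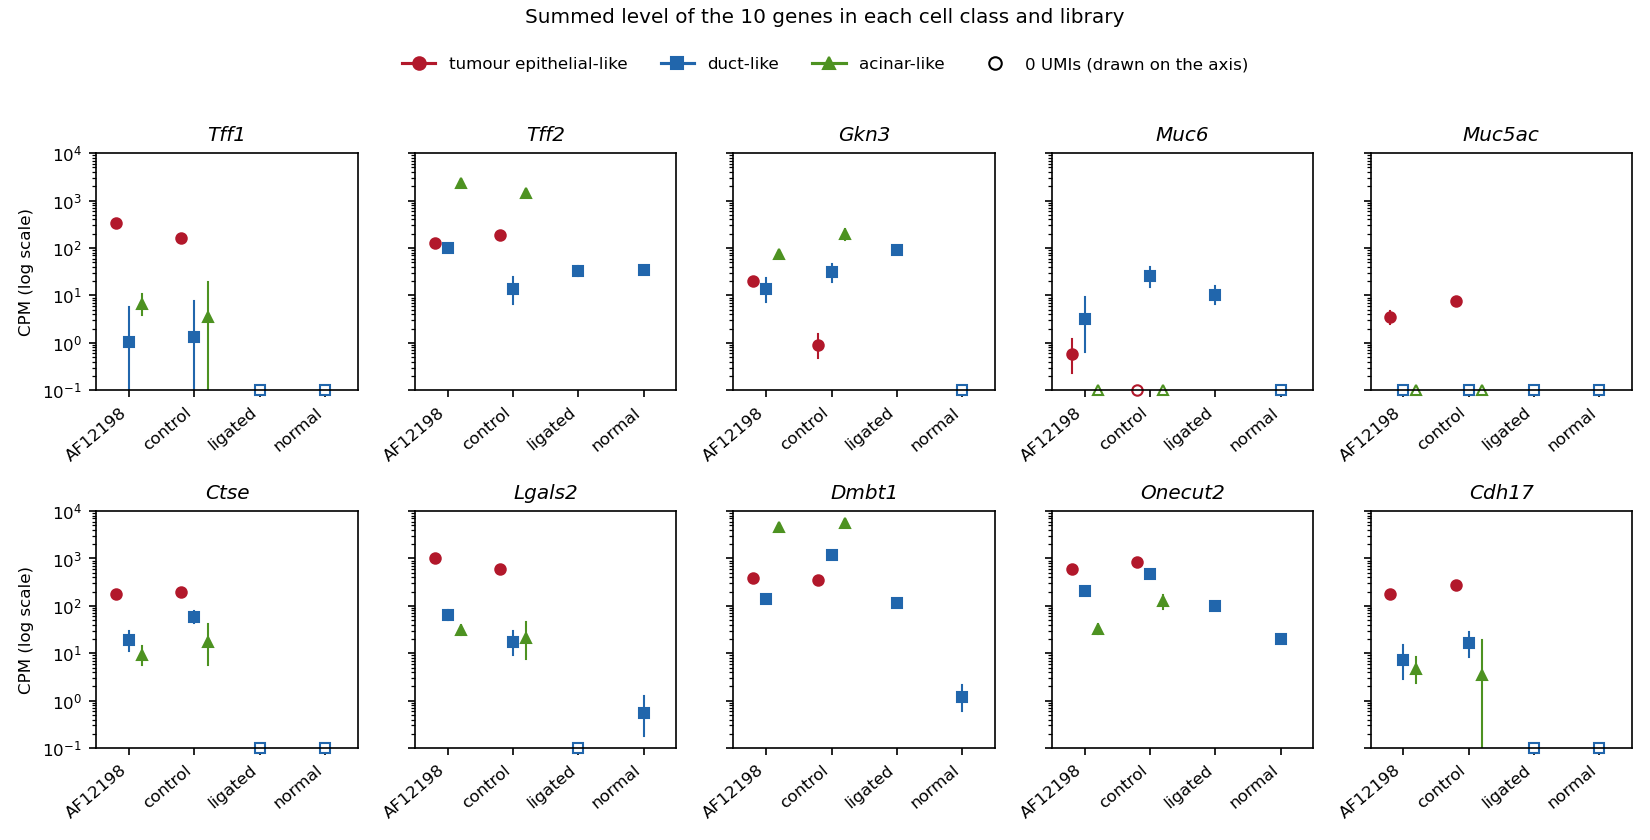
CPM of each of the 10 genes (log axis) in tumour epithelial-like, duct-like and acinar-like cells of each library, with 95% Poisson intervals as lines and open symbols on the axis where a class held 0 UMIs; classes under 25 cells are left out. Tff1, Ctse and Cdh17 are 0 in duct-like cells of the ligated and normal pancreas, while Onecut2 is above 0 in duct-like cells of all 4 libraries.

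Ligated against normal pancreas was compared in duct-like cells, the epithelium that both libraries held in number. Gkn3, Muc6, Dmbt1 and Onecut2 were more than 2-fold higher in the ligated pancreas, but only Onecut2 was spread over many cells. Gkn3 had 202 UMIs, or 91.3 CPM (79.1 to 104.8), in ligated duct-like cells and 0 UMIs in normal ones. Against the floor of 3 counts this was at least 277.3-fold higher. The 202 UMIs lay in 4 of 336 cells, and 2 of these cells held 97.5% of them, whereas 0 of 690 normal cells had any, which allows a share of cells with a UMI of up to 0.435%. Without the richest cell the ligated level was 23.2 CPM. Muc6 had 23 UMIs, or 10.4 CPM (6.59 to 15.6), in ligated duct-like cells and 0 in normal ones, at least 31.6-fold higher. The 23 UMIs lay in 2 cells, which held 12 and 11.

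Dmbt1 had 260 UMIs, or 117.5 CPM, in 8 ligated duct-like cells and 11 UMIs, or 1.21 CPM, in 10 normal ones, 97.4-fold higher (53.5 to 197.4). A ligated cell that held 222 of the UMIs was also the cell richest in Gkn3, and without the richest cell of each library the Dmbt1 ratio was 17.4. Dmbt1 was found in 2.38% of ligated and 1.45% of normal duct-like cells, against 1.58% and 1.05% of the immune-, endothelial- and fibroblast-like cells of the same libraries. With each cell thinned to 1000 UMIs, 5 of 309 ligated (1.62%, 0.527 to 3.74) and 1 of 643 normal duct-like cells (0.156%, 0.00394 to 0.863) kept a Dmbt1 UMI, against 0.828% (0.226 to 2.11) and 0% (0 to 1.28) of the surrounding cells. The intervals of duct-like and surrounding cells overlapped within each library.

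Onecut2 was found in 64 of 336 ligated duct-like cells (19.0%, 15.0 to 23.7) and in 51 of 690 normal ones (7.39%, 5.55 to 9.60). No immune-, endothelial- or fibroblast-like cell had an Onecut2 UMI, of 633 in the ligated and 381 in the normal library, which allows shares of cells with a UMI of up to 0.474% and 0.787%. Its level was 100.8 CPM (88.0 to 114.9) in ligated and 20.3 CPM (17.5 to 23.4) in normal duct-like cells, a ratio of 4.97 (4.07 to 6.07). The ligated cells were the shallower ones, with a median of 3964 UMIs against 9427 in normal duct-like cells, and the immune-, endothelial- and fibroblast-like cells had medians of 2100 and 2180. With each cell thinned to 1000 UMIs, 28 of 309 ligated cells (9.06%) and 6 of 643 normal cells (0.933%) kept an Onecut2 UMI. The excess of Onecut2 in ligated ducts was thus in the share of cells as well as in the level.

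Tff2 was at 33.4 CPM (26.3 to 42.0) in the ligated and 35.0 CPM (31.3 to 39.1) in the normal pancreas, a ratio of 0.955 (0.732 to 1.23). In the normal library the immune-, endothelial- and fibroblast-like cells held 42.4 CPM of Tff2 and in the ligated library 17.7 CPM, so the normal duct-like level was no higher than that of cells that should lack the gene. With the level of those cells subtracted the ratio became 47.9, and over the alternatives it ran from 0.739 to 47.9. The subtraction left nothing of the normal duct-like level, so 47.9 rests on the floor and is not a measured fold difference. Tff1, Muc5ac, Ctse and Cdh17 had 0 UMIs in duct-like cells of both pancreata, and Lgals2 had 0 UMIs in the ligated and 5 in the normal pancreas. For the ligated cells this allows a share of cells with a UMI of up to 0.893%. In all, 5 of the 10 genes passed the filter on low values (at least 5 UMIs in both groups together and 5 CPM in 1), and 4 of these were 2-fold or more higher and 0 lower. Of 11222 genes that passed, 4.93% were 2-fold or more higher and 2.23% lower in ligated duct-like cells, 7.16% in all. Since the list was chosen with these values known, the count is given only as a description.

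**Figure D3:**
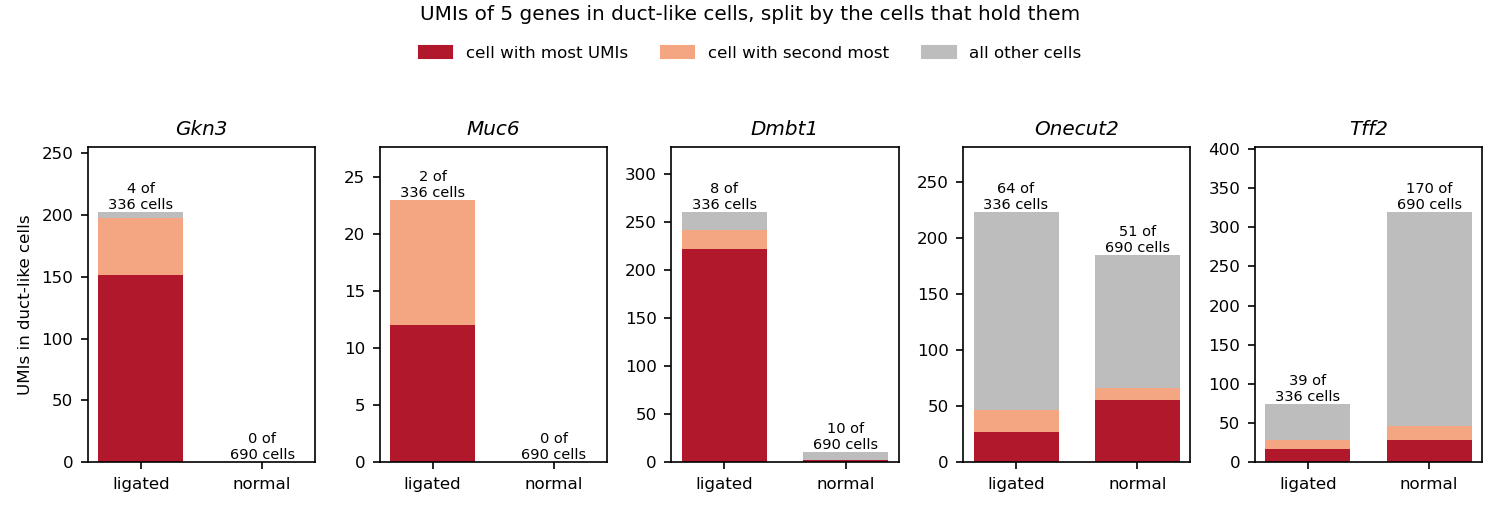
UMIs of Gkn3, Muc6, Dmbt1, Onecut2 and Tff2 in duct-like cells of the ligated and normal pancreas, as stacked bars on linear axes that start at 0 and differ between genes, split into the richest cell, the second richest and all others. In the ligated pancreas 2 cells hold nearly all UMIs of Gkn3, Muc6 and Dmbt1, while Onecut2 and Tff2 lie mostly in other cells.

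The cells rich in Muc6 were then examined one by one, by a rule chosen after its values were seen: at least 5 Muc6 UMIs, with called doublets included. Of 44162 cells, 6 met the rule and held 145 of the 175 Muc6 UMIs in the series. They were 1 cell of the AF12198-treated tumour, 2 of the control tumour and 3 of the ligated pancreas, and 0 of 1772 normal cells had any Muc6. All 6 also held at least 1 UMI of Gkn3, Dmbt1 and Onecut2, 3 held Tff2, and none held Muc5ac. In the control tumour cells some of these counts were only 1 or 2 UMIs, and the part of free RNA in them was not tested. These 6 cells are too few for a frequency.

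Among the ligated cells rich in Muc6, the first held 12 UMIs of Muc6, 46 of Gkn3, 11 of Dmbt1 and 16 of Onecut2 among its 13487 UMIs, with 5 of Pgc, the pepsinogen C of neck and chief cells. The second held 11 of Muc6, 151 of Gkn3, 222 of Dmbt1, 27 of Onecut2 and 17 of Tff2 among 18384 UMIs, with 4 of Pgc. Both had the duct gene Spp1, at 31 and 38 UMIs, and the first was the only one of the pair with the water channel Aqp5, at 4 UMIs. The third, of only 1382 UMIs, held 9 of Muc6, 4 of Gkn3, 3 of Dmbt1 and 3 of Onecut2 and had been grouped with the tumour epithelial-like cells.

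In the control tumour the richest Muc6 cell held 94 UMIs of Muc6, 2348 of Tff2, 63 of Gkn3, 56 of Dmbt1 and only 1 of Onecut2 among 13773. It also held 24 UMIs of Wfdc2 and 9 of Aqp5, both known from gastric neck or antral gland cells, 43 of Spp1 and 0 of the Y-linked gene Ddx3y. The doublet caller had removed it, so it entered no sum unless stated. The other control tumour cell was duct-like, with 12 UMIs of Muc6, 460 of Spp1 and 4 of Ddx3y. Among its 27663 UMIs were only 2 of Gkn3, 1 of Dmbt1 and 6 of Onecut2. The cell of the AF12198-treated tumour was tumour epithelial-like and combined neck-type and pit-type genes, with 752 UMIs of Tff2, 317 of Tff1, 92 of Gkn1, 51 of Gkn3 and 50 of Gkn2 beside 7 of Muc6.

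Tumour epithelial-like cells held most of the UMIs of the pit-type members and of the gut-type members Lgals2 and Cdh17. Among pit-type genes, Tff1 had 338.9 CPM in 169 of 1064 cells (15.9%) of the AF12198-treated tumour and 160.4 CPM in 180 of 1169 cells (15.4%) of the control tumour. Ctse had 175.6 CPM in 40.8% of cells of the AF12198-treated tumour and 197.8 CPM in 52.2% of cells of the control tumour. Muc5ac, the pit-cell mucin, had only 42 UMIs in 17 cells and 120 UMIs in 44 cells, or 3.51 and 7.64 CPM. Immune-, endothelial- and fibroblast-like cells of the same libraries had Tff1 UMIs in 1.19% and 1.00% of cells, Ctse in 1.35% and 2.39% and Muc5ac in 0.0118% and 0.0638%. Median depths were 4335 and 5459 UMIs in tumour epithelial-like cells and 2209 and 1968 in those other cells.

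Lgals2 was found in 67.4% of tumour epithelial-like cells of the AF12198-treated tumour and 66.6% of those of the control tumour, against 2.94% and 2.81% of the surrounding cells. Cdh17 was found in 40.1% and 47.6%, against 1.24% and 2.11%. Dmbt1 was found in 26.4% and 38.2%, against 3.80% and 2.85%. Acinar-like cells of the AF12198-treated tumour held 11009 Dmbt1 UMIs and its tumour epithelial-like cells 4614. In the control tumour these classes held 1583 and 5546. After thinning to 1000 UMIs, Lgals2 remained in 46.4% (43.1 to 49.8) of 877 cells of the AF12198-treated tumour and in 33.6% (30.8 to 36.6) of 1038 cells of the control tumour. Cdh17 remained in 14.4% (12.1 to 16.9) and 19.2% (16.8 to 21.7), and Dmbt1 in 15.2% (12.9 to 17.7) and 17.2% (15 to 19.7). At equal depth, therefore, Lgals2 was in the larger share of cells in the AF12198-treated tumour, while the intervals of the Dmbt1 shares, and narrowly those of Cdh17, overlapped.

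Onecut2 separated the deep from the shallow tumour epithelial-like cluster. It was found in 98.2% of cells of the deep cluster in the AF12198-treated tumour, at 662.1 CPM, and in 97.9% in the control tumour, at 954.7 CPM. In the shallow cluster it had 201.5 and 91.7 CPM. The 4 Y-linked genes summed were at 43.7 and 82.8 CPM in the shallow cluster of the AF12198-treated and control tumour, against 11.9 and 21.5 CPM in the deep one, and the part of free RNA in these levels was not tested. Tff1 lay the other way, with 672.7 CPM in the shallow and 280.3 CPM in the deep cluster of the AF12198-treated tumour and 222.6 and 151.2 CPM in those of the control tumour. Lgals2 was at 1155 and 994.8 CPM in the shallow and deep clusters of the AF12198-treated tumour and at 682.2 and 592.4 CPM in those of the control tumour.

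Of the neck-type members, Muc6 and Gkn3 were scarce in the tumour epithelium and Tff2 was in more cells. Muc6 had 7 UMIs, all in the 1 cell described above, in the AF12198-treated tumour, and 0 of 1169 cells of the control tumour had any, which allows a share of cells with a UMI of up to 0.257%. Gkn3 had 241 UMIs in 35 cells of the AF12198-treated tumour and 14 UMIs in 12 cells of the control tumour. Tff2 had 1517 UMIs in 72 cells (6.77%) of the AF12198-treated tumour, of which 2 cells held 75.6%, and 2984 UMIs in 248 cells (21.2%) of the control tumour, of which 2 cells held 18.5%. Surrounding cells had Tff2 in 2.14% and 1.21% and Gkn3 in 0.160% and 0.110%. Tff2 was thus spread over more tumour cells in the control tumour, and concentrated in the AF12198-treated one.

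Set against duct-like cells of the same tumour, 4 members were at least 2-fold higher in tumour epithelial-like cells of both tumours. Cdh17 was 24.7-fold higher (12.0 to 61.6) in the AF12198-treated tumour and 17.2-fold higher (9.81 to 33.2) in the control tumour. Lgals2 was 15.6-fold (12.2 to 20.4) and 34.6-fold higher (20.2 to 65.1), and Ctse 9.43-fold (5.95 to 15.9) and 3.35-fold higher (2.49 to 4.62). Tff1 had 1 UMI in the duct-like cells of each tumour, so that its ratios of 327.5 (58.7 to 12937) and 119.6 (21.4 to 4725) are loosely bounded. Onecut2 was 2.94-fold higher (2.55 to 3.41) in the AF12198-treated tumour and 1.79-fold higher (1.61 to 2.0) in the control tumour. In the shallow cluster its level was not above that of duct-like cells in either tumour.

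The neck-type genes gave no common direction between tumour epithelium and ducts. Gkn3 was 1.5-fold the duct-like level (0.858 to 2.85) in the AF12198-treated tumour and 0.0289-fold (0.0138 to 0.0586) in the control tumour, on 13 and 23 UMIs in duct-like cells, and the first ratio ran from 0.0874 to 6.43 over the alternatives. Muc6 had 7 UMIs in tumour epithelial-like and 3 in duct-like cells of the AF12198-treated tumour, a ratio of 0.188 (0.0430 to 1.13), and 0 and 19 UMIs in the control tumour, at least 133.4-fold lower. Tff2 was 1.28-fold (1.04 to 1.58) and 14.2-fold higher (7.69 to 29.6). With called doublets kept, among them the removed cell with 2348 Tff2 UMIs, the control ratio became 0.0688. The part of that cell in this move was not tested by itself. The Tff2 ratio in the AF12198-treated tumour ran from 0.0946 to 3.92 over the alternatives. Dmbt1 was 2.82-fold higher (2.37 to 3.38) in the AF12198-treated tumour and 0.304-fold (0.283 to 0.327) in the control tumour, where 2 duct-like cells held 60.2% of its duct-like UMIs. Without the richest cell of each class the control ratio of Dmbt1 was 0.509.

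In the AF12198-treated tumour 8 of the 10 genes passed the filter, and 6 of these were 2-fold or more higher and 0 lower in tumour epithelial-like than in duct-like cells, where 10.7% of 11582 genes were higher and 26.6% lower, 37.3% in all. In the control tumour 10 passed, and 5 were higher and 3 lower, where 12.8% of 11824 genes were higher and 25.9% lower, 38.7% in all. Muc5ac had 42 and 120 UMIs in tumour epithelial-like cells and 0 in duct-like cells of either tumour. With so few duct-like cells its ratios against the floor of 3 counts were only 1.13 and 1.90. The lower limits of the exact intervals were 0.879 in the AF12198-treated and 1.52 in the control tumour.

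AF12198-treated and control tumour were compared within tumour epithelial-like cells. Gkn3 stood out, at 20.1 CPM (17.7 to 22.8) in the AF12198-treated and 0.892 CPM (0.487 to 1.5) in the control tumour, a ratio of 22.6 (13.2 to 41.9). Its ratio was 7.10 to 41.9 over the alternatives tried, and it was higher in the AF12198-treated tumour in the shallow cluster, at 17.4 against 0.992 CPM, as in the deep one, at 20.6 against 0.877 CPM. The AF12198-treated UMIs came from 35 cells, with 51 in the richest. After thinning, 11 of 877 cells of the AF12198-treated tumour (1.25%, 0.628 to 2.23) kept a Gkn3 UMI. In the control tumour 2 of 1038 cells did (0.193%, 0.0233 to 0.694), so that the intervals narrowly overlapped.

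Tff1 was 2.11-fold higher (2.01 to 2.22) in the AF12198-treated tumour, though the share of cells with Tff1 was 15.9% there and 15.4% in the control tumour. Its richest cells held 923 and 334 UMIs, and without them the ratio was 1.88, under 2-fold. After thinning, 8.89% and 4.53% of cells kept a Tff1 UMI. Muc5ac had the opposite direction, at 0.459 of the control level (0.315 to 0.657), and lost its 2-fold difference with a stricter cell filter, at 0.526. The pit-type trefoil factor and the pit-type mucin thus had opposite directions between these libraries.

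The remaining members differed by less than 2-fold. Lgals2 was at 1.69 of the control level (1.64 to 1.73), Dmbt1 at 1.09 (1.05 to 1.13) and Ctse at 0.888 (0.840 to 0.939). Onecut2 was at 0.703 (0.683 to 0.724), Tff2 at 0.667 (0.626 to 0.709) and Cdh17 at 0.649 (0.616 to 0.684). Without the richest cell of each library Tff2 was at 0.374, and over the alternatives it ran from 0.101 to 1.15. Onecut2 turned direction between the clusters, being higher in the AF12198-treated tumour in the shallow cluster, at 201.5 against 91.7 CPM, and lower in the deep one. Dmbt1 also turned, at 130.4 against 205.3 CPM in the shallow cluster and 429.9 against 375 CPM in the deep cluster. Of the 9 genes that passed the filter, 2 were 2-fold or more higher and 1 lower, where 3.09% of 10435 genes were higher and 7.36% lower, 10.4% in all.

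**Figure D4:**
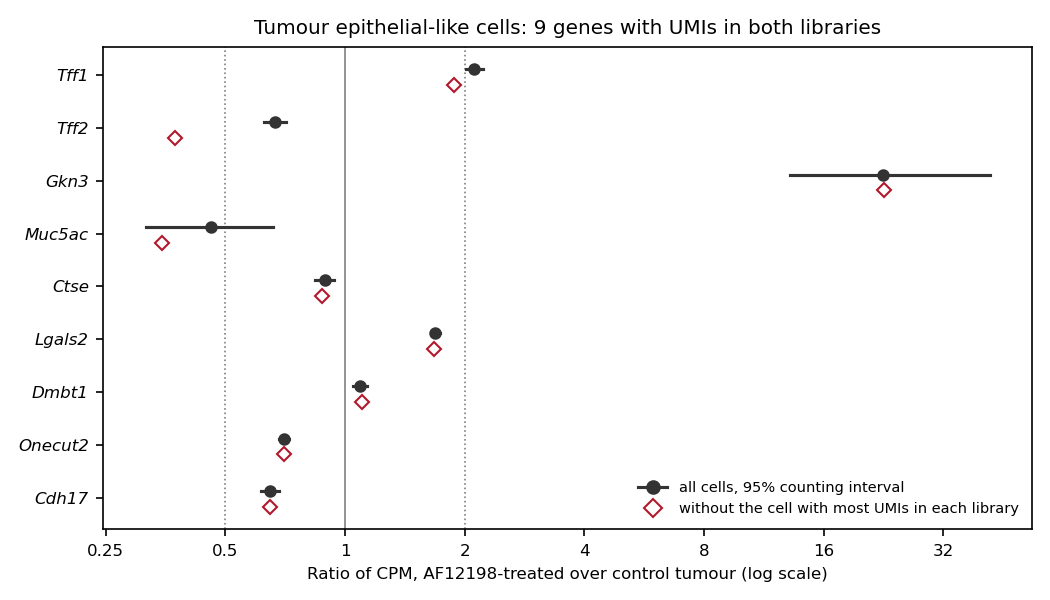
Ratio of CPM in tumour epithelial-like cells of the AF12198-treated over the control tumour (log axis) for the 9 genes that passed the filter, with 95% counting intervals as lines and diamonds for the ratio without the richest cell of each library; dotted lines mark 2-fold. Gkn3 stands at 22.6, Tff1 at 2.11 and Muc5ac at 0.459, and Tff2 at 0.667 with the richest cells and 0.374 without them.

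Which members occurred in the same tumour cells was described in cells of at least 5000 UMIs, each thinned to 5000, which left 513 cells of the AF12198-treated and 599 of the control tumour. The median cell held UMIs of 3 of the 10 genes in each tumour, and 64 cells (12.5%) of the AF12198-treated tumour and 120 (20%) of the control tumour held 5 or more. Tff2, of neck cells in the stomach, was in a larger share of cells with Tff1, of pit cells, than of cells without it. Tff2 was in 16.2% of cells with Tff1 and 3.42% of cells without it in the AF12198-treated tumour, and in 54.0% and 16.6% in the control tumour. In the control tumour 13 of the 16 cells with Muc5ac had Tff2 (81.2%), against 20.4% of cells without Muc5ac, and 11 had Tff1 (68.8%), against 13.0%. In the AF12198-treated tumour only 4 cells had Muc5ac, 0 of them with Tff2 and 2 with Tff1.

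Most cells with a pit-cell gastrokine also had Tff1. With Gkn1 these were 9 of 10 cells of the AF12198-treated tumour, against 12.9% of cells without Gkn1, and 3 of 4 of the control tumour, against 14.1%. With Gkn2 they were 6 of 8 cells of the AF12198-treated tumour, against 13.5%, and 8 of 8 of the control tumour, against 13.4%. Gkn3 in the AF12198-treated tumour went with Dmbt1, found in 14 of 19 cells with Gkn3 (73.7%) and 26.3% of those without, and with Tff2, in 6 of 19 (31.6%) and 4.25%. Tff2 and Dmbt1 occurred together in the control tumour, with Dmbt1 in 78.0% of 132 cells with Tff2 and 26.6% of those without, and in 44.4% of 27 cells and 27.2% in the AF12198-treated tumour.

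The gut-type and regulator members were arranged otherwise. Cdh17 was in 52.4% of cells with Lgals2 and 18.4% of cells without it in the AF12198-treated tumour, and in 58.2% and 32.9% in the control tumour. Onecut2 was in 55.4% of cells with Tff1 against 80.6% of those without it in the AF12198-treated tumour, and in 67.8% against 79.1% in the control tumour. Cdh17 was in 37.0% of cells with Tff2 against 45.3% of those without it in the AF12198-treated tumour, and in 40.2% against 54.4% in the control tumour. For Onecut2 with Tff1 and for Cdh17 with Tff2, the first share was the lower one in both tumours. For Cdh17 with Tff2 in the AF12198-treated tumour that share was only 10 of 27 cells. Cells of 1 library are not replicates, so these shares describe 2 tumours.

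**Figure D5:**
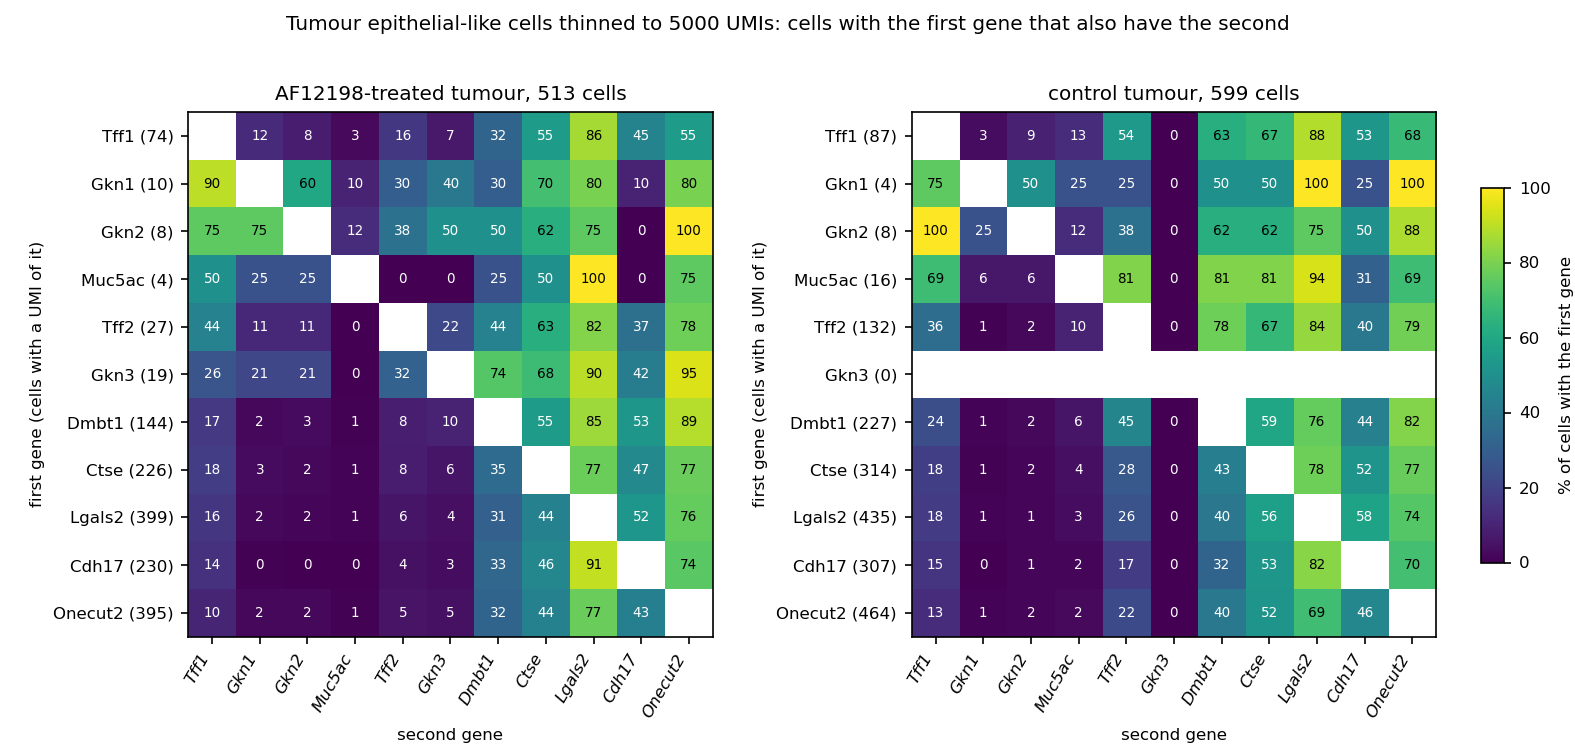
Share (%) of tumour epithelial-like cells with a UMI of the gene in the row that also have a UMI of the gene in the column, after thinning each cell to 5000 UMIs, for the AF12198-treated (left) and control tumour (right); the number of cells with the row gene is in parentheses. The rows of Tff1 show 16.2% Tff2 in the AF12198-treated and 54.0% Tff2 in the control tumour.

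Duct-like cells of the tumours were compared with those of the ligated pancreas without tumour cells. Onecut2 was 4.67-fold higher (3.94 to 5.55) in the control tumour, at 470.9 CPM in 49 of 92 cells (53.3%) against 100.8 CPM in 19.0% of ligated cells. With ligated cells themselves above normal ones, the duct-like levels of Onecut2 had the order control tumour, AF12198-treated tumour (201.8 CPM, 42.4% of cells), ligated and normal, with no overlap of the counting intervals. After thinning, 30%, 9.64%, 9.06% and 0.933% of cells in this order kept a UMI, and the AF12198-treated and ligated shares then overlapped within their intervals. The thinned levels of these turned, at 120.5 CPM in the AF12198-treated tumour and 148.9 CPM in the ligated pancreas. Surrounding cells of the tumours had Onecut2 at 7.11 CPM in the AF12198-treated and 9.04 CPM in the control library.

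Ctse, Lgals2 and Cdh17 had 44, 13 and 12 UMIs in duct-like cells of the control tumour and 0 in those of the ligated pancreas, at least 43.5-fold, 12.9-fold and 11.9-fold higher. The same genes had 7.84, 10.8 and 8.26 CPM in the surrounding cells of the control tumour, against 59.0, 17.4 and 16.1 CPM in its duct-like cells. Dmbt1 was 9.90-fold higher (8.61 to 11.4), Muc6 2.45-fold higher (1.26 to 4.71) and Tff2 0.401-fold (0.185 to 0.780). Without the richest cell of each library Muc6 was at 1.89, under 2-fold, and with called doublets kept it was at 12.5. Gkn3 was at 0.338 of the ligated level (0.210 to 0.522), on 23 UMIs in 3 cells of the control tumour, and turned to 1.07 with called doublets kept and 1.35 with the members among the variable genes. With doublets kept, Tff2 turned to 80.3. In all, 8 of the 10 genes passed the filter, 6 of them 2-fold or more higher and 2 lower, where 11.8% of 11892 genes were higher and 11.9% lower, 23.7% in all.

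Between the tumours, 6 of 8 measured members were 2-fold or more lower in duct-like cells of the AF12198-treated tumour and 2 higher, where 14.1% of 11752 genes were lower and 6.86% higher, 21% in all. Onecut2 was at 0.429 of the control level (0.358 to 0.512), with 0.213 to 0.459 over the alternatives. Dmbt1, at 136.6 and 1163 CPM, was at 0.117 (0.0970 to 0.141) and Ctse at 0.316 (0.172 to 0.557). Muc6, at 3 and 19 UMIs, was at 0.122 (0.0231 to 0.414), and Cdh17, at 7 and 12 UMIs, at 0.450 (0.150 to 1.24). Tff2 was 7.41-fold higher (3.86 to 15.9) and Lgals2 3.74-fold higher (2.04 to 7.41), but 1 cell held 65 of the 96 Tff2 UMIs and 1 cell 49 of the 63 Lgals2 UMIs, and without the richest cells the Lgals2 ratio was 1.54. Tff2 turned to 0.0361 with called doublets kept. With 85 and 92 cells, ratios of the scarce members rest on few cells. Gkn3, at 13 UMIs in 1 cell and 23 in 3, was at 0.436 (0.203 to 0.898), but turned to 4.70 with cells thinned to 1000 UMIs.

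Acinar-like cells, which make the digestive enzymes, held Tff2 and Dmbt1 in most cells. Tff2 was in 307 of 326 cells of the AF12198-treated tumour at 2331 CPM and in 45 of 57 of the control tumour at 1415 CPM, and in all 11 ligated and both normal acinar-like cells. Dmbt1 was in 316 and 56 of these tumour cells, at 4621 and 5504 CPM. Set against the control tumour, Tff2 was 1.65-fold (1.49 to 1.83) and Dmbt1 0.840-fold (0.797 to 0.886) in the AF12198-treated tumour, both within 2-fold. The median gene was at -1.05 on the log2 scale in this comparison, so both stood above it.

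Gkn3 was found in 24 acinar-like cells of the AF12198-treated tumour, at 74.7 CPM, and in 8 of the control tumour, at 194.7 CPM, where 1 cell held 39 of 56 UMIs, and the ratio of 0.384 (0.283 to 0.528) became 1.03 with cells thinned. It was in 0 of 11 ligated acinar-like cells, which allows a share of cells with a UMI of up to 27.3%. Onecut2 was at 32.7 and 125.2 CPM, but 33 of the 36 control UMIs lay in 1 cell and without the richest cells the ratio turned to 1.89. Muc6 and Muc5ac had 0 UMIs in acinar-like cells of every library, and Tff1, Ctse, Lgals2 and Cdh17 lay at 3.48 to 31.1 CPM in the tumours. Of 7 members that passed the filter, 0 were 2-fold or more higher and 2, Gkn3 and Onecut2, lower in the AF12198-treated tumour, where 2.61% of 8528 genes were higher and 56.3% lower, 58.9% in all.

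When tumour epithelial-like and duct-like cells were summed, the control tumour had 8 of the 10 genes 2-fold or more higher than the ligated pancreas and 2 lower, where 17.9% of 12009 genes were higher and 29.8% lower, 47.8% in all. This class is mostly tumour epithelial-like in the control tumour (1169 of 1261 cells) and duct-like in the ligated pancreas (336 of 341 cells). The genes that were lower were the neck-type genes Gkn3, at 0.0242 of the ligated level (0.0166 to 0.0345), and Muc6, at 0.0801 (0.0429 to 0.146). Onecut2 was 8.12-fold (7.12 to 9.30), Tff2 5.46-fold (4.33 to 6.97) and Dmbt1 3.20-fold higher (2.84 to 3.63). Of the 270 ligated Dmbt1 UMIs, 222 lay in 1 cell, and over the alternatives the Dmbt1 ratio ran from 2.80 to 16.9. Tff1, Ctse, Lgals2, Cdh17 and Muc5ac had 0 UMIs in ligated epithelial-like cells. Their levels were at least 113.3-fold, 141.6-fold, 426.9-fold, 195.4-fold and 5.39-fold higher in the control tumour.

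Other genes of the stomach and gut were taken from lists that partly hold the 10 members. In the epithelial comparison of control tumour and ligated pancreas 10 of 11 measured pit genes were 2-fold or more higher in the control tumour and 0 lower. Of all genes measured in this comparison, 17.9% were higher and 29.8% lower. Cldn18, the tight-junction claudin of gastric epithelium, had 12355 UMIs in the control tumour and 1 in the ligated pancreas, a ratio of 1666 (299 to 65811). Of 9 measured neck and deep gland genes 4 were higher and 5 lower. Cd44, a surface receptor for hyaluronan, was 5.83-fold higher, while Aqp5 was at 0.238 and Pgc, on 2 and 13 UMIs, at 0.0208 of the ligated level (0.00227 to 0.0916). Of 8 intestinal-type genes 7 were higher and 0 lower, with the keratin Krt20 at 203.6-fold, on 3020 and 2 UMIs (56.3 to 1682).

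In duct-like cells 5 of 9 measured neck and deep gland genes were 2-fold or more higher in the ligated than in the normal pancreas and 0 lower, against 4.93% and 2.23% of all genes. Beside Gkn3 and Muc6 these were Pgc (13 and 1 UMIs, ratio 53.5, 8.04 to 2275), Aqp5 (2.15, 1.59 to 2.90) and Cd44 (2.13, 1.81 to 2.50). The same 2 ligated cells held 197 of the 202 UMIs of Gkn3, all 23 of Muc6 and 9 of the 13 of Pgc. Of 14 pit genes 1 was measured, the fucosyltransferase Fut2, which was 3.04-fold higher. Of 16 measured foregut regulators 3 were higher and 0 lower, namely Onecut2, the forkhead factor Foxq1 at 2.71 (2.05 to 3.56) and Runx1 at 2.29 (1.88 to 2.79). Among 14 genes of acinar-to-duct change 9 were higher and 0 lower. The secreted lectin Reg3b was one of them, at 30.2-fold (9.07 to 157.6), but all 22 of its ligated UMIs lay in 1 cell.

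Between the tumours, pit genes split within tumour epithelial-like cells, with 3 of 11 measured 2-fold or more higher in the AF12198-treated tumour and 4 lower, where 3.09% of all genes were higher and 7.36% lower. The secreted gastrokines Gkn1, at 20.7 and 6.30 CPM, and Gkn2, at 23.6 and 9.36 CPM, were 3.28-fold (2.59 to 4.19) and 2.52-fold higher (2.06 to 3.10), on the side of Tff1. Cldn18, at 260.6 and 786.3 CPM, was at 0.331 (0.319 to 0.345) and Vsig1, a junction protein of gastric epithelium, at 0.395 (0.365 to 0.427), on the side of Muc5ac. Of 12 measured mucins and mucus-packing genes 6 were higher and 2 lower, beside the same shares of all genes. Agr2, which helps fold mucins, had 56.3 and 6.37 CPM (8.84-fold, 7.15 to 11), and the mucus protein Fcgbp had 17.7 and 0.573 CPM (30.9-fold, 16 to 68.5). Of 20 foregut regulators 2 were higher, Hnf4g at 5.03-fold and Foxa1 at 4.64-fold, and 5 lower, among them the foregut factor Sox2 at 0.174 and Gata4 at 0.437, beside 3.09% and 7.36% of all genes.

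Onecut1, the paralogue of Onecut2, was far lower in tumour epithelial-like than in duct-like cells. It had 1.17 CPM in tumour epithelial-like and 165.6 CPM in duct-like cells of the AF12198-treated tumour, and 4.59 and 221.4 CPM in the control tumour. These are ratios of 0.00706 (0.00377 to 0.0122) and 0.0207 (0.0155 to 0.0275). Onecut2 summed over the tumour epithelial-like clusters was 2.94-fold the duct-like level in the AF12198-treated tumour and 1.79-fold in the control tumour. Over the alternatives the control ratio of Onecut2 ran from 1.10 to 2.0. In the shallow cluster Onecut2 was at 201.5 CPM in the AF12198-treated tumour, against 201.8 CPM in its duct-like cells. In the control tumour Onecut2 was at 91.7 CPM in that cluster, against 470.9 CPM in duct-like cells.

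Profiles over the 38 sums of cell classes in libraries with at least 25 cells were used to name the genes most like each member, by Pearson correlation of log2(CPM + 1). These sums share libraries and depth, so the coefficients are descriptions. Ctse was closest to Sprr1a (0.887), Msln (0.867) and Cldn18 (0.822), and Cdh17 to Msln (0.871), Cldn18 (0.855) and Cdkn2a (0.849). Lgals2 was closest to Cdkn2a (0.885), Msln (0.848) and Apob (0.825), and Onecut2 to Tspan8 (0.887), Krt8 (0.868) and Hmgcll1 (0.863). Tff2 was closest to the acinar enzyme genes Pla2g1b (0.798), Cela1 (0.787) and Cel (0.778). Dmbt1 and Gkn3 had the same first gene, 2210407C18Rik, at 0.895 and 0.836. Among members, Ctse and Cdh17 had a coefficient of 0.814, Lgals2 and Cdh17 0.803, Ctse and Lgals2 0.774, Gkn3 and Dmbt1 0.767, Gkn3 and Tff2 0.709 and Tff1 and Muc5ac 0.651. The neighbouring genes Tff1 and Tff2 had 0.255.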

How the data were processed

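Per the labels, tissue was digested to single cells and made into 10x Genomics 3' libraries. The values deposited by the authors are raw UMI counts per gene and cell, and per the submitters' processing notes they come from Cell Ranger 6.0.0 with genome mm10; which gene annotation it used is not given in the sources used here. Cells were kept at 250 genes, 500 UMIs and at most 20% mitochondrial UMIs. Scrublet in scanpy 1.11.5 removed 993, 2163, 0 and 1 doublets in the AF12198-treated tumour, control tumour, ligated and normal libraries; in the first the top 5% of scores were removed because its automatic threshold had not worked. Cells were clustered on 2000 variable genes without the 10 members (40 components, 20 neighbours, resolution 1.0), and clusters were named from marker lists. UMIs were summed per class and library and given as CPM with exact Poisson intervals, ratios with exact conditional intervals and shares with exact binomial intervals, all at 95% (scipy 1.17.1). The floor for 0 is 3 counts. With 1 library per condition no test was made. Total UMIs of kept cells were 85735234, 80398550, 5315805 and 11235204. The members and lists were chosen with earlier results of these data known, and the naming thresholds after the data were seen. List genes past 2-fold were named, at most 6 per list and comparison.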

Additional observations from a re-analysis of the deposited data

Results flagged for a closer look

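Dmbt1 had opposite directions in the 2 tumours when tumour epithelial-like cells were set against duct-like cells of the same library. It was 2.82-fold higher in the AF12198-treated tumour and at 0.304 of the duct-like level in the control tumour. The difference between the tumours was not tested, since each is 1 library. The duct-like cells of the AF12198-treated tumour held 132 Dmbt1 UMIs in 16 of 85 cells, 93 of them in 1 cell, and those of the control tumour held 867 UMIs in 17 of 92 cells, with 383 and 139 in the 2 richest. The tumour epithelial-like levels were close, at 385.2 and 353.2 CPM.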

How the results depend on the processing

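No paired analysis was possible because each group is 1 library, and for the same reason no replicate could be left out. Over 10 settings, 502 of 676 ratios of members stayed within their counting error, 165 moved beyond it and 9 were counted as reversed. More ratios than these 9 crossed 1. For tumour epithelium over ducts of the AF12198-treated tumour, for example, 7 of 10 alternatives kept the direction of Tff2 and 8 of 10 that of Gkn3. Of 104 counts of members, 93 stayed within 1.5 times and 11 did not. Of the AF12198-treated over control tumour in tumour epithelial-like cells, the 3 members apart became 6 at 1.5-fold and 9 where the interval excluded 1. In the control tumour, the 8 members apart between tumour epithelial-like and duct-like cells became 5 with cells thinned to 1000 UMIs. With called doublets kept, Tff2 turned to 0.0688 for tumour over duct in the control tumour. It also turned to 80.3 for control tumour over ligated ducts and to 0.0361 for AF12198-treated over control ducts. Gkn3 turned to 1.07 for control tumour over ligated ducts. The last was 1.35 with the members among the variable genes. Gkn3 of AF12198-treated over control ducts turned to 4.68 with cells weighted equally and 4.70 when thinned, and in acinar-like cells to 1.03 when thinned. Leaving out the richest cell, an alternative chosen after seeing the data, turned Onecut2 in acinar-like cells to 1.89. The cause of these moves was not tested. The number of cells limits the scarce members in duct-like cells of the tumours, 85 and 92, and in acinar-like cells of the control tumour, 57. Tff2 of ligated over normal ducts moved to 47.9 with the level of surrounding cells subtracted, a value that rests on the floor since nothing of the normal level was left.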

Other observations

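An unnamed cluster of 559 cells of the normal pancreas, with a median of 649 UMIs per cell, held Tff2 in 86 cells at 246.3 CPM. This is above the 35.0 CPM of duct-like cells and the 42.4 CPM of immune-, endothelial- and fibroblast-like cells in the same library. Its leading genes mix endocrine and acinar genes, among them Ins1, Ins2, Clps and Pla2g1b. The cluster also had 12 of 16 acinar, 8 of 13 duct and 6 of 8 epithelial markers raised. Gkn3 had 9 UMIs in 5 of 381 immune-, endothelial- and fibroblast-like cells of the normal pancreas and 0 in its 690 duct-like cells.

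The gastric gene Cblif, which encodes intrinsic factor, was found in 70 acinar-like cells of the AF12198-treated tumour at 96.1 CPM and in 14 of the control tumour at 156.5 CPM.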
